A study of Danio rerio with 30 samples.

Results

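The change in gene expression at the optic fissure between 32 and 48 hours post-fertilisation (hpf) was followed in 8 of the 30 RNA sequencing libraries of a study of zebrafish (Danio rerio) eye development. The 8 libraries were replicates 2 to 5 at 32 hpf and replicates 1 to 4 at 48 hpf, all labelled as retina of the optic fissure (OF). The study sampled OF and dorsal retina (DR), with no strain, genotype or agent named in the labels, at 32, 48 and 56 hpf, that is while the fissure is open, while it fuses and once it has fused. Every group had 5 libraries. The OF library of replicate 1 at 32 hpf was left out because a read was found in only 13854 genes, and that of replicate 5 at 48 hpf because its ventral and dorsal eye genes went against its label (18.4 normalised counts of vax1 and 21.6 of vax2). The choice of libraries thus used regional genes. The ventral and dorsal lists and most of their named genes are therefore given below with every replicate kept as well. The labels do not say whether replicates came from separate clutches or how many embryos each held, so p-values measure the spread between these libraries. Ventral retina apart from the fissure was not sampled, and the fissure cannot be told apart from ventral position.

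The optic fissure is the gap that forms along the ventral optic cup and optic stalk as the cup folds, and through which blood vessels enter and ganglion cell axons leave. Its margins approach, the basement membrane between them is removed, and the epithelia join. A fissure that fails to close is a coloboma. Around the gap the retina itself is developing: progenitor cells divide, leave the cell cycle in order, and become ganglion cells first, then amacrine, horizontal and cone cells, and last bipolar cells, rods and Müller glia. In fish this sequence starts in the ventronasal retina beside the fissure. A dissected piece of the fissure region holds the margins together with such retina, vessels, pigment epithelium and mesenchyme around the eye.

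The 8 libraries held 8.52 to 12.3 M reads in genes (M, 1e6). A read was found in 17958 to 19311 genes at 32 hpf and in 19799 to 20508 at 48 hpf. Every 32 hpf library thus had fewer genes with a read than every 48 hpf library. Values are normalised counts, that is reads divided by the size factor of the library, and are given in the order of replicates 2, 3, 4 and 5 at 32 hpf and replicates 1, 2, 3 and 4 at 48 hpf. A gene was tested where at least 4 of the 8 libraries held 10 or more, and was called at an adjusted p under 0.05 from limma on log2(normalised count + 1), with Benjamini-Hochberg adjustment over all tested genes. Fold changes are on that log2 scale, which understates changes of low genes. Of 14884 genes tested, 5544 were called (37.2%), of which 3777 were higher at 48 hpf (25.4%) and 1767 lower (11.9%). In 25.0% of tested genes every 48 hpf library lay above every 32 hpf library, and in 11.5% every one lay below. Increases were larger than decreases: 2090 called genes rose by more than 2 on the log2 scale, against 134 that fell by more than 2. No read was found in any of the 4 libraries at 32 hpf for 89 genes that held 10 or more in all 4 at 48 hpf, and 0 genes showed the opposite. The filter was passed only through the 48 hpf libraries by 663 tested genes and only through those of 32 hpf by 19, and such genes had to differ. In the lists below, counts of 0 to 2 genes moved by at most 1 when single libraries were left out, except where stated. The split between higher and lower calls depended on scaling. It was 68.1% higher with the deposited size factors, 56.7% with TMM scaling and 45.6% with quantile normalisation, with a median of all tested genes of 0.20, 0.03 and -0.20. Gene by gene, the median shift was -0.17 with TMM and -0.48 with quantile normalisation. In this bulk tissue, fewer cells of a type and less RNA per cell cannot be told apart.

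Replicate 4 at 48 hpf stood at one end of its group. It was the lowest of the 4 libraries for 67.6% of the genes called higher at 48 hpf, and the highest for 62.1% of those called lower. Among all tested genes it was lowest for 35.6% and highest for 26.7%. Without it 3639 genes were higher and 1744 lower. At 32 hpf replicate 5 was the lowest of its group for 38.5% of the genes called higher.

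**Figure D1:**
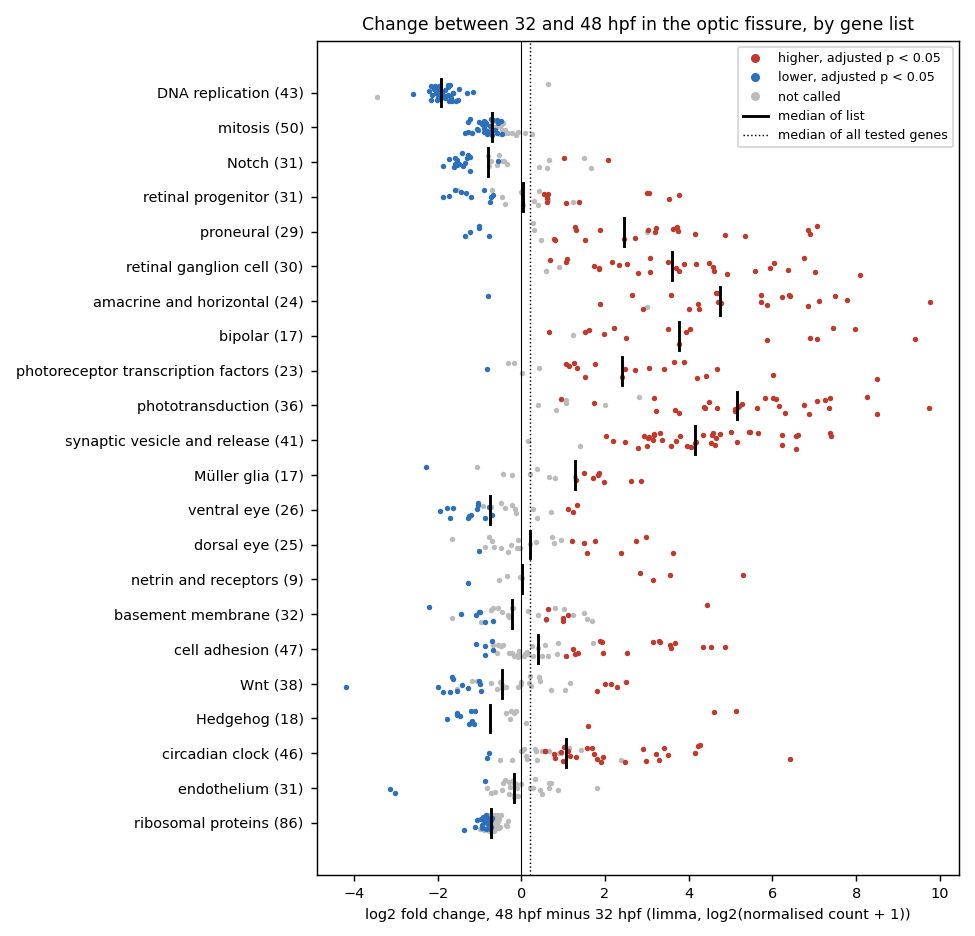
Log2 fold change between 32 and 48 hpf (48 minus 32 hpf, horizontal axis) for tested members of 22 gene lists, one point per gene, with the number tested in brackets. Red and blue points are genes called higher and lower, grey points are not called, bars are list medians and the dotted line is the median of all tested genes (0.20): replication genes sit left (median -1.92) and phototransduction genes far right (median 5.14).

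Genes of the DNA replication machinery fell almost without exception. Of 43 tested genes for replication forks, clamp loading and nucleotide supply, 41 fell, 0 rose and 2 were not called (median -1.92, against 0.20 over all tested genes), and in 41 of them every 48 hpf library lay below every 32 hpf library. Of all tested genes 11.9% fell, and in 11.5% every 48 hpf library lay below every 32 hpf library. The replication clamp gene pcna, chosen after its values were seen, held 46890, 34550, 44600 and 48250 normalised counts at 32 hpf and 10200, 9580, 7535 and 16980 at 48 hpf. The groups were far apart, with replicate 4 the highest at 48 hpf (log2 fold change -2.03, SE 0.25, adjusted p = 1.46e-04). The clamp loader subunit gene rfc2 went from between 1805 and 2480 to between 428 and 569 (-2.05, SE 0.16, adjusted p = 1.74e-05). lig1, which encodes the ligase that joins Okazaki fragments, fell by 2.13, the polymerase alpha gene pola1 by 2.01, and slbp, whose product binds histone mRNA, by 1.76. msh6, a mismatch repair gene, was among the 12 largest decreases, from 789 to 1268 down to 102 to 172 (-2.77, SE 0.24, adjusted p = 2.27e-05).

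Mitotic genes fell less. Of 50 tested, 32 fell and 0 rose, beside 11.9% and 25.4% of all tested genes. The median was -0.70 (TMM -0.87, quantile -0.70). Without replicate 2 at 48 hpf 21 fell. The proliferation marker mki67 held 9421, 10070, 9819 and 7914 at 32 hpf and 3989, 4107, 4374 and 5667 at 48 hpf (-1.05, SE 0.17, adjusted p = 6.1e-04). The cyclin A gene ccna2 (-1.18, SE 0.20, adjusted p = 8.53e-04) and the condensin genes smc2 (-1.27) and ncapd2 (-1.26) also fell. Among 30 genes of cyclins, their kinases and their brakes, 15 fell and 6 rose, beside the same shares of all tested genes. cdk2, the kinase of S phase, held 2067 to 2470 at 32 hpf and 615 to 1060 at 48 hpf (-1.53, SE 0.18, adjusted p = 1.24e-04). The E2F genes e2f3 (-1.60) and e2f4 (-1.77), which act in the switch into S phase, fell too, as did ccnd1, the cyclin of G1, chosen after its values were seen (-1.63, SE 0.21, adjusted p = 1.9e-04). In DR the same contrast gave 41 of 43 replication genes lower (median -1.35) and 24 of 50 mitotic genes lower (median -0.48), where 9.06% of tested DR genes were lower.

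**Figure D2:**
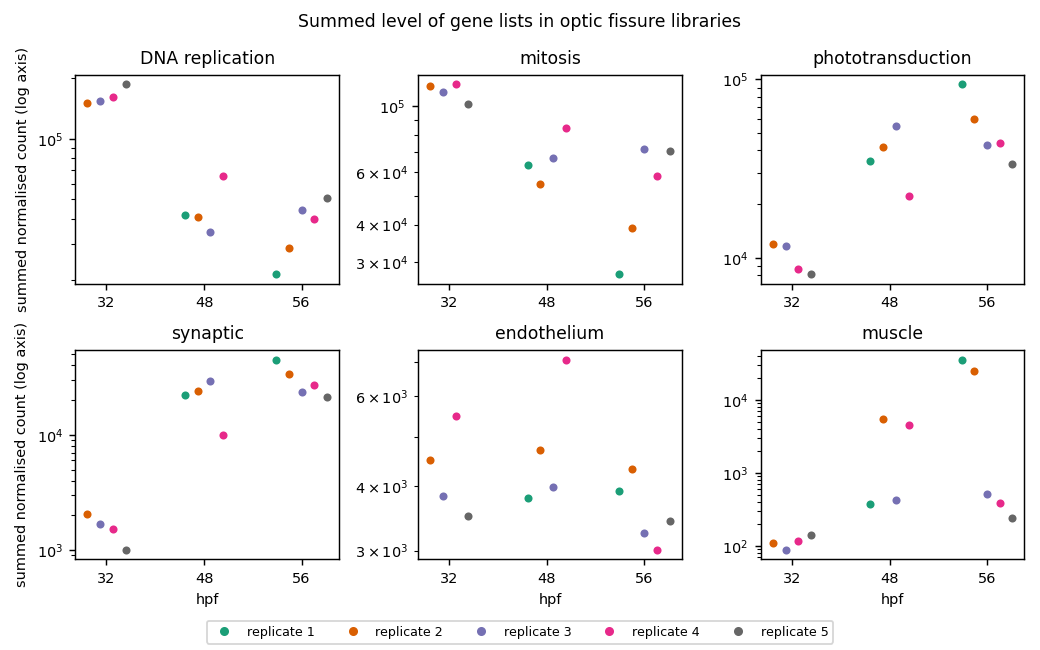
Summed normalised counts of 6 gene lists (log axis) in each optic fissure library at 32, 48 and 56 hpf, coloured by replicate number. Replication genes summed to 150200 to 187300 at 32 hpf and 34450 to 65100 at 48 hpf, with replicate 4 highest at 48 hpf and lowest for phototransduction; muscle genes are high in replicates 2 and 4 at 48 hpf and in replicates 1 and 2 at 56 hpf.

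Genes of the retinal progenitor state moved in both directions. Of 31 tested, 10 rose and 10 fell, beside 25.4% and 11.9% of all tested genes. The median was 0.05, which turned to -0.12 with TMM and -0.01 with quantile scaling. The homeobox gene rx1, active in dividing retinal cells, held 2560, 2182, 2377 and 3433 at 32 hpf and 726, 1145, 787 and 860 at 48 hpf (-1.58, SE 0.19, adjusted p = 1.32e-04). Of the members that rose, vsx1, which is kept in bipolar cells, had the smallest adjusted p and went from 1230, 1682, 1110 and 681 to 18250, 14070, 17470 and 12050 (3.77, SE 0.25, adjusted p = 7.18e-06). lhx9 rose by 3.52 and rx3 by 3.05.

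Among early developmental RNA-binding and chromatin genes, 7 of 12 tested fell and 1 rose, beside 11.9% and 25.4% of all tested genes. lin28a, whose product blocks maturation of let-7 microRNAs, held 162, 234, 212 and 148 at 32 hpf and 9.19, 35.4, 5.62 and 26.6 at 48 hpf (-3.53, SE 0.53, adjusted p = 4.27e-04). The DNA methyltransferase genes dnmt3bb.2 (-2.24, SE 0.26) and dnmt3bb.1 (-1.59, SE 0.26) fell, with adjusted p of 9.73e-05 and 6.14e-04. The gene that rose was sall1a, which encodes a zinc finger factor, at 44.1 to 74.3 and then 687 to 1042 (3.96, SE 0.24, adjusted p = 4.72e-06).

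Genes of Notch signalling, by which neighbouring cells hold each other back from differentiating, fell more often than they rose. Of 31 tested genes 16 fell and 2 rose (median -0.80), beside 11.9% and 25.4% of all tested genes. The ligand gene dla held 1548, 1719, 1740 and 1446 and then 471, 572, 505 and 770 (-1.50, SE 0.18, adjusted p = 1.2e-04). A second delta ligand gene, dlb (-1.54, SE 0.21), and the receptor gene notch1b (-1.58, SE 0.21) fell, with adjusted p of 2.12e-04 and 1.86e-04. DR gave 14 of 30 lower and 1 higher, beside 9.06% and 18.6% of all tested DR genes.

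Most genes of neuronal differentiation rose. In the proneural list 20 of 29 tested genes rose and 5 fell, beside 25.4% and 11.9% of all tested genes. Of the 29, 3 passed the filter only through 48 hpf. The early factor gene atoh7, needed for ganglion cells and named after its values were seen, was among those that fell. It held 5162, 5863, 7821 and 1596 and then 2001, 1445, 1172 and 2674, and these groups overlapped through replicate 5 at 32 hpf (-1.35, SE 0.43, adjusted p = 0.0286). The call ended without replicate 2, 3 or 4 at 32 hpf or replicate 2 or 3 at 48 hpf (adjusted p from 0.0662 to 0.0846, limma). Later factors rose. neurod6a had no read at 32 hpf and 128, 137, 107 and 102 normalised counts at 48 hpf, at least 43.7-fold higher against a floor of 3 reads per library. neurod2 had none and then 126, 130, 137 and 76.3, at least 43.2-fold higher. Both were among the 3 genes that passed only through 48 hpf, and so had to rise. The floor covers counting error only. bhlhe23 went from 4.16 to 43.8 up to 1125 to 3825 (7.06, SE 0.61, adjusted p = 2.28e-05), and sox4a from 127 to 430 up to 2997 to 4595 (4.14, SE 0.34, adjusted p = 1.92e-05).

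Ganglion cell genes, those of the first neurons to be born, were higher in 28 of 30 tested cases and lower in 0 (median 3.59, 5 of the 30 passing only through 48 hpf). Of all tested genes 25.4% were higher and 11.9% lower. isl1, named after its values were seen, held 845, 1189, 551 and 179 at 32 hpf and 7705, 6228, 7922 and 4232 at 48 hpf (3.49, SE 0.47, adjusted p = 2.14e-04). The POU factor gene pou4f3 had no read at 32 hpf and 251, 336, 330 and 191 at 48 hpf, at least 102-fold higher. It passed only through 48 hpf, and so had to rise. The LIM homeobox gene isl2a went from 0 to 17.5 up to 431 to 878 (7.01, SE 0.72, adjusted p = 5.69e-05). rbpms2a, an RNA-binding protein gene used to mark ganglion cells, was already present at 94.1 to 189 and reached 913 to 1586 (3.07, SE 0.26, adjusted p = 2.25e-05).

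Genes of amacrine and horizontal cells, the inhibitory interneurons, rose in 22 of 24 tested cases and fell in 1 (median 4.74, 6 passing only through 48 hpf). Over all tested genes, beside which each count here stands, 25.4% rose and 11.9% fell. The paired box gene pax10 went from 95.2, 175, 221 and 146 to 2920, 2230, 2485 and 2215, a tight group at either time (4.00, SE 0.24, adjusted p = 4.72e-06). The calcium-binding protein gene calb2b (calretinin) was among the largest increases of all, from 1.05, 5.68, 5.54 and 0 to 3148, 4078, 6258 and 643 (9.77, SE 0.75, adjusted p = 1.46e-05). It was among the 6 that passed only through 48 hpf, and so had to rise. Bipolar cell genes, of the neurons that carry signals from photoreceptors inwards, rose in 16 of 17 cases and fell in 0 (median 3.77, 1 passing only through 48 hpf). gnb3a, a G protein beta subunit gene, went from 11.5, 28.4, 4.61 and 0.83 to 8984, 7259, 9085 and 1344 (9.40, SE 0.80, adjusted p = 2.27e-05), and pcp4a from 23.3 to 64.9 up to 388 to 658. In calb2b and gnb3a replicate 4 was several times below the other 48 hpf libraries, and still above every library of 32 hpf.

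**Figure D3:**
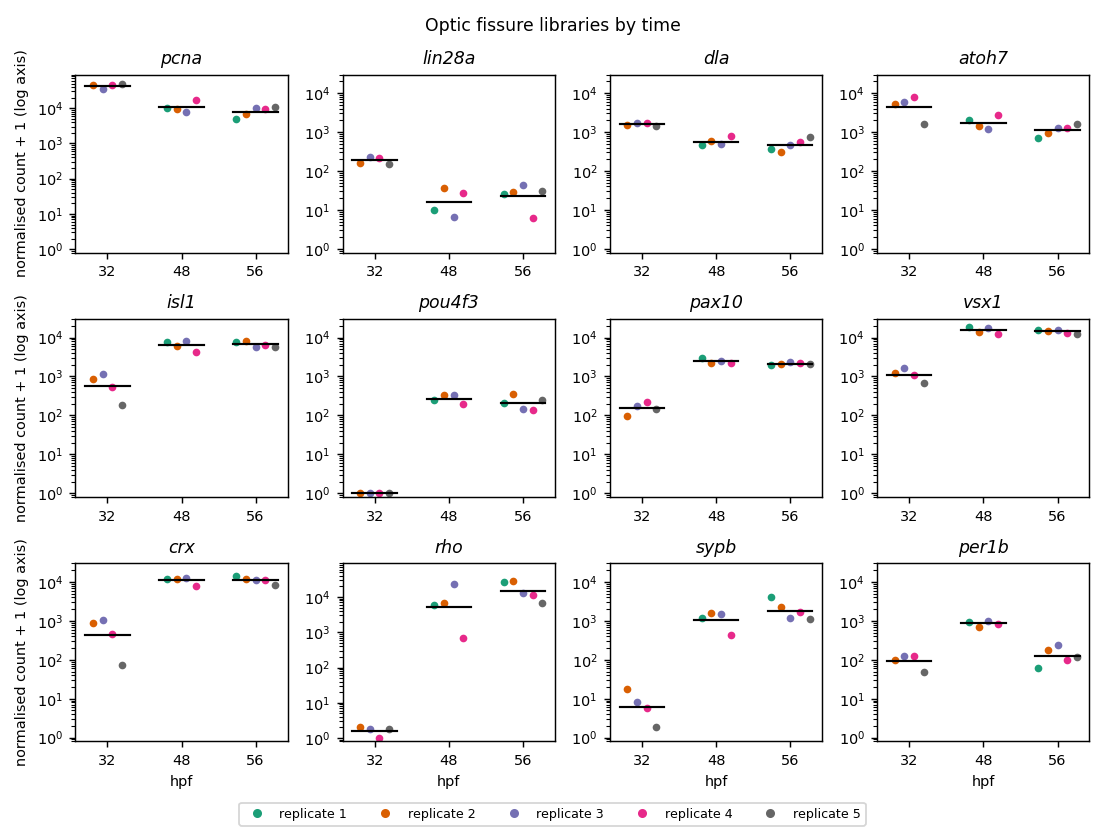
Normalised count + 1 (log axis) of 12 genes in each optic fissure library at 32, 48 and 56 hpf, coloured by replicate number, with the geometric mean as a bar. pcna, lin28a and dla fall between 32 and 48 hpf, pou4f3 has no read at 32 hpf, rho is lowest in replicate 4 at 48 hpf (704), and per1b is high at 48 hpf alone.

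Most genes of photoreceptor identity rose. Of 23 tested transcription factor genes of rods and cones 18 rose and 1 fell, beside 25.4% and 11.9% of all tested genes. Among the 23, foxq2 alone passed the filter only through 48 hpf and so had to rise. crx, the homeobox gene common to both and named after its values were seen, went from 904, 1065, 462 and 72.5 to 12190, 11970, 12740 and 7744 (4.69, SE 0.66, adjusted p = 2.84e-04). foxq2, known from blue cones in zebrafish, went from 0 to 2.09 up to 452 to 718 (8.5, SE 0.50, adjusted p = 4.72e-06). prdm1a rose by 6.02, neurod1 by 2.72 and mef2d by 2.41.

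Opsin genes rose or were not called. Of 24 found, 13 were tested, and 10 rose and 0 fell, beside 25.4% and 11.9% of all tested genes. Of the 13, 5 passed only through 48 hpf and so had to rise, among them rho, opn1sw1 and opn1lw2. The list summed to 687 to 1226 normalised counts at 32 hpf and 2092 to 31350 at 48 hpf. It also holds melanopsin and other opsin genes not of rods and cones, so the sum is not of rod and cone opsins alone. The rod opsin gene rho had 3 reads in all 4 libraries of 32 hpf together, and held 5943, 6862, 22970 and 704 normalised counts at 48 hpf. The ratio of the group means was 13560, with a 95% counting interval of 4641 to 65770 (11.62 on the log2 scale, SE 0.81, adjusted p = 7.67e-06). At 56 hpf it held 26790, 28660, 13190, 11180 and 6781. The ultraviolet cone opsin gene opn1sw1 had no read at 32 hpf and 245, 581, 1174 and 28.3 at 48 hpf, at least 187-fold higher. The red cone opsin gene opn1lw2 went from 0, 3.24, 0 and 1.67 to 318, 1831, 2219 and 62.6 (8.19, SE 1.02, adjusted p = 1.47e-04). In each of these opsins replicate 4 was the lowest at 48 hpf and replicate 3 the highest, with a range of over an order of magnitude within the group.

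Phototransduction genes turn photon capture into an electrical signal. They rose in 30 of 36 tested cases and fell in 0 (median 5.14), beside 25.4% and 11.9% of all tested genes. However, 13 of the 36 passed only through 48 hpf and so had to rise, among them arr3a, gngt2b and gngt1. The gene list used here had 66 members in the deposited table. The cone arrestin gene arr3a went from 3.14, 0.81, 0 and 0 to 1081, 1915, 4540 and 429 (9.74, SE 0.70, adjusted p = 9.33e-06). The cone transducin gamma gene gngt2b had no read at 32 hpf and 324, 1036, 659 and 39.4 at 48 hpf, at least 190-fold higher. Its rod counterpart gngt1 had 1 read at 32 hpf and 223, 194, 529 and 56.6 (ratio 1203, 95% counting interval 216 to 47510). prom1b, needed to build outer segment discs, and the recoverin gene rcvrna rose to 135 to 804 and 410 to 1607. Among genes of the visual cycle, which regenerates the chromophore, 17 of 25 rose and 2 fell, beside the same shares of all tested genes. Of the 25, 3 passed only through 48 hpf, irbp among them. The retinol dehydrogenase genes rdh8a (3.97, SE 0.48) and rdh5 (3.33, SE 0.42) rose, with adjusted p of 1.26e-04 and 1.51e-04, and the retinoid carrier gene irbp went from 0 to 4.05 up to 64.3 to 160.

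Of 41 tested genes for vesicles and release 39 rose and 0 fell at 48 hpf (median 4.15, 9 passing only through 48 hpf). Each count here stands beside 25.4% higher and 11.9% lower over all tested genes. The vesicle protein gene sypb (synaptophysin) went from 16.7, 7.30, 4.61 and 0.83 to 1150, 1577, 1482 and 435 (7.38, SE 0.64, adjusted p = 2.29e-05). syt5b, a calcium sensor, went from 8.33 to 72.2 up to 827 to 3573. Of 29 tested neurotransmitter receptor genes 25 rose and 0 fell, but 18 of these passed only through 48 hpf and 29 of the 58 found were not tested. The NMDA receptor gene grin1b had no read at 32 hpf and 298, 238, 317 and 39.4 at 48 hpf, at least 82.3-fold higher. It passed only through 48 hpf, and so had to rise. Müller glia genes, of the last cell type to form, gave 8 of 17 higher and 1 lower, and 5 higher without replicate 5 at 32 hpf. rlbp1b, a retinaldehyde carrier known from zebrafish Müller glia, went from 525, 776, 615 and 356 to 1603, 1647, 1905 and 1157 (1.5, SE 0.24, adjusted p = 6.19e-04). The glutamate transporter gene slc1a3a fell (-2.28, SE 0.27, adjusted p = 1.17e-04), while gfap, the glial filament gene that defines the list, held 42.1 ± 26.0 and then 20.7 ± 15.5 (SD, n = 4) and was not called (adjusted p = 0.227), though it was with quantile normalisation (-2.47, adjusted p = 0.0176).

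Most genes of several of these lists also rose in DR. Of the genes tested there, 26 of 29 ganglion cell, 20 of 22 amacrine and horizontal cell, 14 of 17 bipolar cell, 14 of 17 phototransduction and 31 of 35 synaptic genes were higher at 48 hpf, where 18.6% of all tested DR genes were higher. Fewer did so in other lists: 3 of 8 opsin, 9 of 20 visual cycle and 8 of 16 Müller glia genes. Across 13881 genes tested in both regions, 2233 were higher in both, which is 68.1% of the OF calls and 85.8% of the DR calls. A further 1016 were lower in both (58.2% and 79.6%), and 2 genes had opposite calls. The changes correlated across these genes (r = 0.90, rho = 0.84). Genes are not independent replicates.

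**Figure D4:**
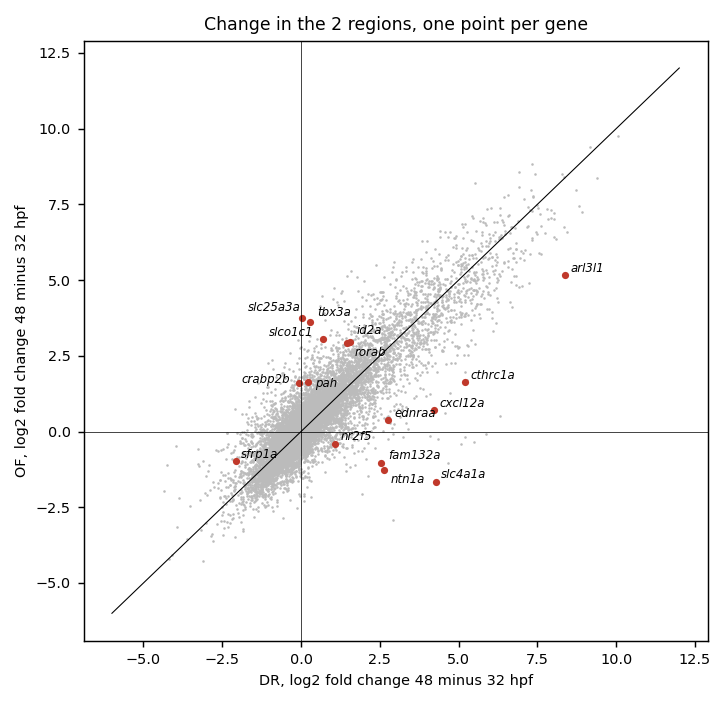
Log2 fold change between 32 and 48 hpf in DR (horizontal axis) and OF (vertical axis), one grey point per gene tested in both regions, with the line of equal change. Red points with a symbol are genes whose change differed between regions with the pair of libraries as a block; ntn1a lies at 2.62 in DR and -1.28 in OF.

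Genes listed for the ventral eye and optic stalk fell more often than they rose. Not all of them mark ventral position alone: foxd1, which temporal retina also expresses, is a member and fell. The list had 13 of 26 tested members lower and 3 higher (median -0.75), against 11.9% and 25.4% of all tested genes. With every replicate kept, including the library that went against its label, 8 were lower and 4 higher, and with 6 group means over all 30 libraries 5 were lower and 4 higher. The homeobox gene vax1, required in ventral retina and optic stalk, held 787, 1202, 1033 and 699 at 32 hpf and 811, 750, 867 and 702 at 48 hpf. These groups overlapped and no change was called (-0.22, SE 0.19, adjusted p = 0.397; -1.08 and 0.373 with every replicate kept). Its paralog vax2 held 532, 823, 759 and 804 and then 402, 386, 550 and 377, which overlap through 1 library of each time (-0.76, SE 0.20, adjusted p = 0.0108). The change of vax2 was larger and not called with every replicate kept (-1.45, adjusted p = 0.137). The paired box gene pax2a, whose human counterpart is mutated in coloboma with kidney defects, fell most among these, from 584, 829, 952 and 740 to 105, 174, 307 and 265 (-1.95, SE 0.31, adjusted p = 6.01e-04; -2.28 and 0.0049 with every replicate kept). aldh1a3, which makes retinoic acid in the ventral retina, went from 659, 1005, 1153 and 725 to 371, 255, 752 and 433, with overlap through replicate 3 at 48 hpf (-1.04, SE 0.31, adjusted p = 0.0193). That call ended without replicate 4 at 32 hpf or replicate 1 or 2 at 48 hpf (adjusted p = 0.0576, 0.0516 and 0.0582, limma), where the change was -0.90, -0.98 and -0.80. It was larger and not called with every replicate kept (-2.70, adjusted p = 0.163). The gene cyp1b1, a cytochrome known from eye development, fell by 1.70. The ventral ephrin receptor gene ephb3a fell by 1.26. foxg1b and nr2f1b rose by 1.24 and 1.34. With every replicate kept, cyp1b1 and ephb3a changed by -1.87 and -1.29, and foxg1b and nr2f1b by 1.36 and 1.38.

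Other ventral and netrin genes named were grem2b, smoc2, smoc1 and ntn1a. grem2b, a BMP antagonist gene, held 691, 380, 864 and 343 and then 264, 190, 230 and 235, every 48 hpf library below every earlier one (-1.21, SE 0.29, adjusted p = 0.00697). Of all tested genes 11.5% had every 48 hpf library below every 32 hpf library. The change of grem2b was -2.13 with every replicate kept (adjusted p = 0.0275, limma). smoc2, a matrix protein gene, went from 249, 344, 415 and 430 to 204, 209, 180 and 176 (-0.87, SE 0.22, adjusted p = 0.00898; -1.13 and 0.0897 with every replicate kept). Its paralog smoc1 held 86.7 to 193 and 43.7 to 103 and was not called (-0.74, SE 0.36, adjusted p = 0.13), though it was with quantile normalisation (-1.30, adjusted p = 0.0102). Nor was smoc1 called with every replicate kept (-0.59, adjusted p = 0.795, limma). The netrin-1 gene ntn1a, whose product is deposited at the fissure margins and is needed for fusion in fish and mice, held 936, 998, 1489 and 1088 at 32 hpf and 309, 511, 451 and 608 at 48 hpf (-1.28, SE 0.23, adjusted p = 0.0012). Its change was -1.41 with every replicate kept (adjusted p = 0.00168, limma). Of 16 netrin pathway genes 9 were tested, of which 4 rose, 1 fell (ntn1a) and 4 were not called. Of all tested genes 25.4% rose and 11.9% fell. Of the 9, 2 passed only through 48 hpf, unc5a among them, and 3 fell with quantile normalisation. Those that rose were the netrin receptor genes dscamb, dscama, unc5a and unc5c, which ganglion cell axons and other neurons also use. dscama went from 32.5 to 102 up to 357 to 614 (2.83, SE 0.35, adjusted p = 1.31e-04), and unc5a from 2.43 to 8.30 up to 30.9 to 109. The receptor gene neo1a held 208 to 351 and 206 to 233 and was not called, though it was with quantile normalisation (-0.64, adjusted p = 0.0366).

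Several dorsal genes rose in OF, at a share near that of all tested genes. Of 25 tested, 8 rose and 1 fell (median 0.20), where 25.4% of all tested genes rose. With quantile normalisation 5 rose and 7 fell (median -0.24), without replicate 2 at 48 hpf 5 rose, and with every replicate kept 7 rose and 1 fell (median 0.55). The T-box gene tbx3a went from 122, 32.4, 37.8 and 215 to 1123, 1334, 890 and 586 (3.62, SE 0.53, adjusted p = 3.7e-04). tbx2a went from 221, 182, 175 and 419 to 882, 907, 897 and 563 (1.77, SE 0.28, adjusted p = 6.23e-04), and the ligand gene bmp4 from 55.4, 127, 112 and 75.8 to 224, 238, 228 and 386 (1.56, SE 0.32, adjusted p = 0.00248). The groups did not overlap in any of these 3 genes. In 25.0% of all tested genes every 48 hpf library lay above every 32 hpf library. id2a, a target of BMP signalling, rose from 310 to 821 up to 2788 to 4088 (2.97, SE 0.27, adjusted p = 2.81e-05). These 4 genes, tbx3a, tbx2a, bmp4 and id2a, rose by 3.69, 1.82, 1.61 and 2.82 with every replicate kept. The dorsal list is defined by tbx5a and aldh1a2. tbx5a had 1 read at 32 hpf and 0 to 14.9 normalised counts at 48 hpf, and failed the filter. aldh1a2 held 61.7 to 130 and 21.1 to 87.6 and was not called (-0.71, SE 0.47, adjusted p = 0.259), though it was with quantile normalisation (-1.37, adjusted p = 0.0453). Nor was aldh1a2 called with every replicate kept (-0.28, adjusted p = 0.78, limma). In DR 2 of 28 dorsal genes rose and 7 fell, beside 18.6% and 9.06% of all tested DR genes. There tbx3a, tbx2a and bmp4 were not called (adjusted p = 0.339, 0.183 and 0.938, limma).

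**Figure D5:**
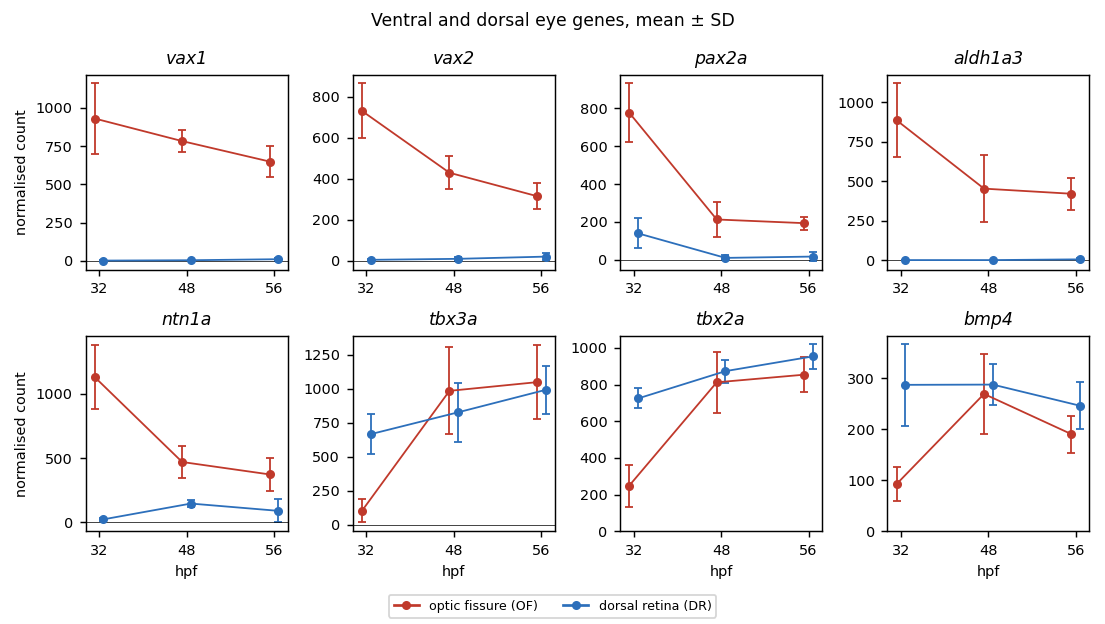
Mean normalised count with SD of 8 ventral, netrin and dorsal eye genes in OF (red) and DR (blue) at 32, 48 and 56 hpf (n = 4, 4 and 5). vax1 stays near its 32 hpf level in OF, ntn1a falls in OF from 1128 to 469 while it goes from 24.4 to 147 in DR, and tbx3a goes from 102 to 983 in OF.

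The difference between the regions was tested directly, as the OF change minus the DR change over the 16 libraries of both regions. Without a block, 1 of 16192 tested genes was called (0.00618%). It was ntn1a, which fell in OF and rose in DR, from 24.4 ± 9.29 to 147 ± 30.5 normalised counts (SD, n = 4), so that its change differed by -3.91 (SE 0.43, adjusted p = 6.35e-04, limma). At an unadjusted p under 0.05 there were 668 genes. edgeR called 1 gene lower and 0 higher, and DESeq2 10 and 7. Replicate numbers pair OF and DR within a time, and with the pair as a block 27 genes were called (0.167%), 17 of them with the greater rise or smaller fall in OF (0.105%) and 10 with the smaller rise or greater fall (0.0618%). ntn1a again had the smallest adjusted p (5.83e-04). Its call ended in 1 alternative, a fit of 6 group means over all 30 libraries (-3.98, adjusted p = 0.0936). tbx3a rose more in OF by 3.32 (SE 0.39, adjusted p = 0.00364). Without the block it was called in DESeq2 (0.00328), with array weights (0.0293), with every replicate kept (0.0372), with 6 group means (0.00204) and without the 32 hpf pair of replicate 5 (0.0163). With the block, tbx2a and bmp4 missed the threshold (adjusted p = 0.0774 and 0.137).

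Among the genes called with the block were several of rods and cones. Of these, rho, opn1sw1 and gngt1 held 10 or more in all 4 OF libraries of 48 hpf and in 1 DR library, and arr3a in 2, so that they entered the test mainly through OF at 48 hpf, which favours a difference in that direction. rho rose more in OF by 9.46 (SE 1.07, adjusted p = 0.0036), arr3a by 6.58 (SE 0.85, adjusted p = 0.00914), gngt1 by 6.36 (SE 0.84, adjusted p = 0.00914) and opn1sw1 by 7.18 (SE 0.99, adjusted p = 0.0105). In DR at 48 hpf rho held 0 to 188 normalised counts, and opn1sw1 had 10 reads over 4 libraries, where all 4 OF libraries held 704 or more of rho. Limma without the block and with no other change called none of these 4, with adjusted p of 0.0919 for rho and opn1sw1, 0.218 for arr3a and 0.0869 for gngt1. Other fits without the block did call some of them. Array weights called rho (0.0199), opn1sw1 (0.0272) and gngt1 (0.0272), and a pseudocount of 5 called rho (0.029), arr3a (0.029) and gngt1 (0.0265). Leaving out the 48 hpf pair of replicate 3 called rho (7.36e-04), and leaving out that of replicate 4 called opn1sw1 (0.0145) and gngt1 (0.0336). In DESeq2 the difference for rho turned to -9.2 and was not called (adjusted p = 0.478), with no read of rho in DR at 32 hpf. Among genes with the greater rise in DR was arl3l1 (-3.23, SE 0.45, adjusted p = 0.0105), which rose in both regions. The chemokine gene cxcl12a was another (-3.53, SE 0.51, adjusted p = 0.0166): it held 192 to 696 and 384 to 993 in OF and was not called there, and rose from a mean of 10.2 to 205 in DR. In the limma fit without the block and with no other change, ntn1a was the 1 gene of the 27 that was called. cxcl12a was called without the block in DESeq2 (adjusted p = 2.12e-05), with array weights (0.0272) and without the 48 hpf pair of replicate 4 (0.0336).

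Genes of the basement membrane, the sheet that must be cleared for margins to meet, gave a split that depended on the scaling. Of 32 tested, 6 rose and 7 fell (median -0.22), against 3 and 9 with TMM, 4 and 13 with quantile normalisation and 2 and 7 with edgeR. With every replicate kept 4 fell, without replicate 1 at 48 hpf 3 rose, and without replicate 4 at 32 hpf 9 rose. Over all tested genes 25.4% rose and 11.9% fell. Among the laminin genes, lamb2l held 182, 178, 287 and 251 and then 36.8, 61.5, 42.2 and 48.8 (-2.22, SE 0.29, adjusted p = 1.99e-04), and lama1 went from 209 to 325 down to 55.5 to 145 (-1.45, SE 0.31, adjusted p = 0.00393). dag1, the gene of the laminin receptor dystroglycan, fell by 1.00. agrn, a heparan sulphate proteoglycan gene, rose by 1.00 and frem2a went from 0 to 13.8 up to 54.0 to 72.5. Of 35 tested collagen and matrix genes, 16 rose and 0 fell, 3 of the 35 passing only through 48 hpf, with the tenascin gene tnc at 85.8, 74.6, 103 and 103 and then 861, 938, 1193 and 764 (3.33, SE 0.21, adjusted p = 4.72e-06). The cartilage and vitreous collagen gene col2a1a went from 18.3 to 76.6 up to 460 to 1353. tnc and col2a1a rose in DR too (6.10 and 4.91).

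Matrix proteases and their inhibitors gave 7 of 29 higher and 2 lower, and 5 and 5 with quantile normalisation. Over all tested genes 25.4% were higher and 11.9% lower, so the higher side was close to the background. adamts18 rose by 2.88 (SE 0.47, adjusted p = 6.68e-04). Of 47 tested adhesion genes 17 rose and 5 fell (12 and 11 with quantile normalisation), and 3 fell without replicate 3 or 4 at 32 hpf or replicate 1 or 3 at 48 hpf. Of the 47, 4 passed only through 48 hpf. cdh6, a cadherin gene, went from 52.3, 89.2, 74.7 and 34.1 to 661, 597, 840 and 233 (3.14, SE 0.41, adjusted p = 1.9e-04), ctnna2, a neuronal catenin gene, rose by 3.29 and the nectin gene pvrl1b by 1.36. Of 37 tested genes known from coloboma 13 rose and 8 fell, beside 25.4% and 11.9% of all tested genes. The split moved to 11 and 11 with TMM scaling, 14 and 13 with quantile normalisation and 11 and 5 with every replicate kept. tfap2a, needed in the fissure and also present in amacrine cells, went from 62.8, 204, 108 and 24.2 to 4527, 4531, 4808 and 2871 (5.73, SE 0.50, adjusted p = 2.33e-05). mab21l1 rose by 1.05 and tenm3 (ENSDARG00000005479), a teneurin gene known from retinal wiring, by 1.44.

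Among signalling pathways, Wnt and Hedgehog genes fell more often than they rose. Over all tested genes, beside which each count here stands, 25.4% rose and 11.9% fell. Of 38 tested Wnt genes 12 fell and 5 rose (median -0.46), and 19 and 1 with quantile normalisation. Without replicate 1 or 2 at 48 hpf 3 rose. The antagonist gene sfrp5 was the largest decrease among named genes, from 371, 264, 415 and 888 to 36.8, 18.6, 12 and 32.6 (-4.20, SE 0.44, adjusted p = 6.3e-05), and fell by 4.18 in DR. The TCF genes tcf7l1a, tcf7l1b and tcf7l2, which act at Wnt targets, fell by 1.54, 1.70 and 1.87. Of 18 Hedgehog genes 9 fell and 3 rose, 2 of the 18 passing only through 48 hpf. The signal transducer gene smo held 740 to 859 and 328 to 422 (-1.13, SE 0.16, adjusted p = 2.54e-04) and kif7 fell by 1.77. The ligand gene shha, which ganglion cells make, had no read at 32 hpf and 39.8, 12.1, 90 and 29.1 at 48 hpf, at least 15.8-fold higher. It passed only through 48 hpf, and so had to rise. FGF targets of the ETS family fell, etv5b from 459 to 977 down to 156 to 209 (-2.09, SE 0.25, adjusted p = 1.2e-04) and etv4 by 2.94 (adjusted p = 8.93e-04; -1.93 and 0.0853 with every replicate kept), while of 31 FGF genes 6 fell and 4 rose (12 and 3 with quantile normalisation). Of 50 BMP and TGF-beta genes 14 rose and 8 fell, near the shares of all tested genes on the higher side, and 12 rose and 15 fell with quantile normalisation. Among those that rose was the inhibitor gene id4, at 6.66 to 94.9 and then 1614 to 2133. Retinoic acid genes gave 8 of 23 higher and 4 lower (7 and 7 with quantile normalisation, and 2 lower without replicate 1 or 2 at 48 hpf), with the receptor partner gene rxrga (3.05) and the binding protein gene crabp1a (3.09) higher. Of 48 axon guidance genes 21 rose and 1 fell (17 and 4 with quantile normalisation, 2 of the 48 passing only through 48 hpf). Among those that rose were sema3aa (3.37), robo3 (2.36) and nrp2b (2.09). Of 23 Hippo genes 3 rose and 3 fell (3 and 8 with quantile normalisation, and 5 fell without replicate 2 at 32 hpf). The YAP target gene ctgfa went from 77.0 to 90 up to 305 to 647 (2.58, SE 0.26, adjusted p = 4.96e-05).

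Clock genes were higher at 48 hpf in 27 of 46 tested cases and lower in 2 (median 1.07), beside 25.4% and 11.9% of all tested genes. The higher count was 19 with quantile normalisation, and 20 with edgeR or without replicate 2 at 48 hpf. The light and clock responsive gene per1b held 98.3, 127, 126 and 46.6 at 32 hpf, 959, 703, 990 and 853 at 48 hpf (3.22, SE 0.31, adjusted p = 3.62e-05), and 59.5, 178, 243, 95.6 and 117 at 56 hpf. The repressor gene ciarta held 47.1 to 160, then 919 to 1073 (3.40, SE 0.35, adjusted p = 5.42e-05), then 321 to 454. Thus both were high in every 48 hpf library and lower again in every library of 56 hpf. The melatonin synthesis gene aanat2 (6.42) and the nuclear receptor genes roraa (3.30) and rorab (2.91) stayed high at 56 hpf, with means of 667, 930 and 2124. In DR per1b and ciarta rose by 2.96 and 2.80. The labels give no clock time of sampling and no lighting, so that age and time of day cannot be told apart.

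Markers of other cell types in the dissected piece were read as whole lists, beside 25.4% higher and 11.9% lower over all tested genes. Endothelial genes summed to 3507 to 5477 at 32 hpf and 3797 to 7063 at 48 hpf, with 0 of 31 higher and 3 lower (10 lower with quantile normalisation), and the defining genes cdh5 (115 to 189 and 74.6 to 195) and kdrl (37.7 to 77.5 and 41.5 to 60.0) were not called. The 3 that fell were lyve1b, mrc1a and cldn5a, of which lyve1b passed the filter only through 32 hpf and so had to fall. lyve1b and mrc1a, scavenger receptor genes of lymphatic and related endothelium, held 10.5 to 44.3 and 16.7 to 40.6 at 32 hpf and 0 to 6.33 and 0 to 13.3 at 48 hpf. With every replicate kept neither passed (-1.91 and -2.52, adjusted p = 0.182 and 0.0561, limma). The call of cldn5a (adjusted p = 0.0295) ended without any single one of replicates 2, 3 and 4 at 32 hpf or 1, 2 and 3 at 48 hpf (0.051 to 0.0882). In DR 8 of 27 endothelial genes rose and 0 fell, beside 18.6% and 9.06% of all tested DR genes. Among erythrocyte genes 3 of 21 rose and 2 fell (9 fell with quantile normalisation and 4 without replicate 3 at 48 hpf). Of those that rose, cahz (1.96, adjusted p = 0.00235, limma) is also in the Müller glia list. The embryonic beta globin gene hbbe3 fell, from 3231, 787, 989 and 1542 to 145, 157, 267 and 197 (-2.91, SE 0.38, adjusted p = 1.89e-04), where hbae3, an embryonic alpha globin gene, held 866 to 4216 and 915 to 2745 and was not called.

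Pigment epithelium genes gave 9 of 23 higher and 2 lower, with the isomerase gene rpe65a at 36.6 to 157 and 530 to 1626 and the melanin synthesis gene tyrp1b at 4095 to 7247 and 12720 to 21170. Genes of mesenchyme and neural crest around the eye summed to 2300 to 3705 and 6603 to 9007. At 48 hpf the sums were 6862, 9007, 6603 and 8654 in replicates 1 to 4. In them tfap2a, a member also present in amacrine cells, held 4527 to 4808 in replicates 1 to 3 and 2871 in replicate 4. It was most of the sum in replicates 1 to 3, and was far lower at 32 hpf. Which cells gave the sum and its rise was not tested. Of 26 tested, 6 rose, tfap2a among them, and 1 fell, where 25.4% of all tested genes rose. With quantile normalisation 2 rose, and with every replicate kept 10 did. foxd1, which temporal retina also expresses, was the 1 that fell (-1.64, SE 0.36, adjusted p = 0.00386). alx4b held 13 to 24.2 and then 55.2, 106, 38.7 and 187, with replicates 2 and 4 high at 48 hpf. The same 2 libraries held most muscle RNA. actc1b went from 14.6, 4.05, 9.23 and 27.5 to 94.0, 1504, 41.5 and 1322, and the summed muscle list reached 5458 and 4446 in replicates 2 and 4 against 371 and 423 in the others. The part of muscle in other results was not tested. Macrophage genes gave 5 of 16 higher and 0 lower, beside 25.4% and 11.9% of all tested genes. The higher count was 8 without replicate 2 at 32 hpf and 3 without replicate 2 at 48 hpf. Summed levels of 1436 to 4671 and 2624 to 4428 overlapped. Lens genes stayed near 0 in sum (87.4 to 268 and 104 to 212), with 17 of 46 without a read in the 8 libraries. Skin genes summed to 877 to 2046 and 950 to 1650.

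Ribosomal protein genes took 5.83 to 11.5% of reads at 32 hpf and 4.89 to 7.23% at 48 hpf. Of 86 tested 22 fell and 0 rose (median -0.73), beside 11.9% and 25.4% of all tested genes. The count of falls hung on single libraries and on the method. It was 59 with TMM scaling and 76 with edgeR, 84 without replicate 3 at 32 hpf, 5 without replicate 2 or 4 at 32 hpf or replicate 1 or 3 at 48 hpf, 14 without replicate 5 at 32 hpf, 4 without replicate 2 at 48 hpf and 32 without replicate 4. rpl5b held 7273, 3758, 8150 and 7062 and then 2794, 2438, 2710 and 3949, with overlap through replicate 3 at 32 hpf (-1.11, SE 0.25, adjusted p = 0.00468). In DR 1 of 87 fell, where 9.06% of all tested DR genes did. Genes of oxidative phosphorylation were largely not called, at 5 of 103 higher and 1 lower, beside 25.4% and 11.9% of all tested genes. However, 23 were lower without replicate 3 at 32 hpf. Only 3 were higher without replicate 5 at 32 hpf or replicate 1, 2 or 3 at 48 hpf.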

How the data were processed

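The authors deposited 1 table of normalised read counts, a signal value per gene and library, for 27731 genes. Per the submitters' processing notes, the build was GRCz10 and the tools included HTSeq, STAR 2.4.0, Trim Galore, DESeq2 and Picard, whose roles are not given. Per the labels' protocols, RNA came from a kit made for fixed tissue and libraries from one for small amounts of RNA. The strand setting of the counting was not given in the sources used here, so antisense pairs and close paralogs may share reads. In each column, values were whole multiples of the value of 1 read, which gave back the reads (100.0% whole within 0.01).

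Genes with a value of at least 10 in at least 4 libraries of a comparison were kept, and tested with limma-trend (limma 3.58.1, R 4.3.3) on log2(value + 1), two-sided, with Benjamini-Hochberg adjustment. DR was tested in the same way on its partner libraries, and the difference between regions as an interaction. edgeR 4.0.16 (quasi-likelihood) and DESeq2 1.42.0 were run on the recovered reads. Other alternatives changed the pseudocount, filter, scaling, weights and libraries. The test script was checked on simulated data. OF and DR libraries of the same number and time deviated together (8 pairs, r from 0.26 to 0.50, against -0.27 to 0.00 for different numbers), so the pair was used as a block for that difference.

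Gene lists (46, with 1825 different genes) and the libraries were chosen with earlier results of these data known. After values had been seen, smyhc3 was dropped from the muscle list, because its name led to another gene, and rps6k and cox4nb genes from the ribosomal and respiration lists, because they encode neither. Of 1580 named genes, 1472 were found by the table's symbol, 33 by a current symbol and 20 by a synonym, and 55 were not found. Genes are named by a rule: the 12 largest increases and decreases with a mean of at least 50, the 4 (for some lists 6) list members with the smallest adjusted p, a fixed ventral set, 8 called differences between regions, and defining genes. Those named after their values were seen are marked. Several genes that the rule gives are not reported here. Levels at 56 hpf were not tested.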

Additional observations from a re-analysis of the deposited data

Results flagged for a closer look

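Among 139 genes named, 394 groups of 4 or 5 libraries were examined for a library far from the others, and 21 had one. Chance flags about 1 in 20 groups. In 6 of these the library was replicate 4 at 48 hpf, and in 6 it was replicate 1 at 56 hpf.

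Replicate 4 at 48 hpf held 386 normalised counts of bmp4 (224 to 238 in the other libraries of its group) and 524 of e2f3 (362 to 389). It was below the others in crx (7744 against 11970 to 12740), foxg1b (4385 against 5146 to 5292), tbx2a (563 against 882 to 907) and tfap2a (2871 against 4527 to 4808). Replicate 3 at 48 hpf held 550 of vax2 (377 to 402 in the others) and 2054 of ldha (818 to 1007), and replicate 2 held 14.9 of tbx5a (0 to 2.04).

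At 32 hpf the libraries apart were replicate 4 in cdk2 (2470 against 2067 to 2111), replicate 3 in frem2a (13.8 against 0 to 1.67) and nrp2b (279 against 131 to 152), replicate 2 in hbae3 (4216 against 866 to 1264), and replicate 5 in id4 (6.66 against 86.7 to 94.9).

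At 56 hpf replicate 1 was the highest in cdh5 (220 against 107 to 139), ctgfa (973 against 319 to 500), gngt2b (10630 against 423 to 2265), rlbp1b (2655 against 1627 to 1884), rx1 (1856 against 784 to 1041) and tyrp1b (26480 against 16420 to 18460). Replicate 5 was the highest in neurod6a (184 against 104 to 125).

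The change between 32 and 48 hpf differed between OF and DR for ntn1a by -3.91 on the log2 scale. With the pair as a block it also differed for rho (9.46), opn1sw1 (7.18), arr3a (6.58), gngt1 (6.36), opn1lw2 (4.84), tbx3a (3.32), rorab (1.44), id2a (1.43), arl3l1 (-3.23) and cxcl12a (-3.53). Of these, rho, opn1sw1, arr3a and gngt1 entered the test mainly through OF at 48 hpf, which favours a difference in that direction. In OF alone opn1lw2 passed the filter only through 48 hpf. Limma without the block and with no other change called ntn1a only. Each value is the OF change minus the DR change.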

How the results depend on the processing

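In OF the counts of 3777 genes higher and 1767 lower stayed within 1.5 times under every alternative run, except that quantile normalisation gave 3281 lower. Leaving out 1 library gave 3041 to 3963 higher and 1332 to 1974 lower. With every replicate kept, 3319 genes were higher and 1402 lower, of which 3158 and 1288 were among the main calls. Replicate numbers did not pair libraries across times (r = 0.00, 0.07 and 0.20 in OF), and the replicate block left 3043 higher and 1235 lower. In DR quantile normalisation gave 2149 lower, all replicates kept 810 lower, and the replicate block 1507 higher and 416 lower, against 2645 and 1285. Leaving out 1 DR library gave 2003 to 2732 higher and 878 to 1443 lower.

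For the difference between regions, the replicate block gave 17 genes higher and 10 lower, DESeq2 7 and 10, and array weights 6 and 2. Genes higher numbered 4 with a pseudocount of 5, and 1 with no filter, with every replicate kept, or with 6 group means over 30 libraries. That last fit left 0 lower, as ntn1a missed the threshold (-3.98, adjusted p = 0.0936). Leaving out 1 pair gave 0 to 7 higher and 1 to 3 lower, the most without the pair of replicate 4 at 48 hpf, and ntn1a kept its call in each (-4.1 to -3.64). In DESeq2 the difference of rho turned to -9.2 (adjusted p = 0.478). DR had no read of rho at 32 hpf.

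Signs turned in 3 genes that were not called. With the replicate block cdh5 was 0.04 and hbae3 0.03. Leaving out 1 library gave -0.41 to 0.05 for cdh5, -0.41 to 0.39 for hbae3 and -0.27 to 0.07 for kdrl. The causes were not tested. Calls also ended for grem2b and hbbe3 with 6 group means, where the changes were larger (-2.13 and -3.37, adjusted p = 0.0884 and 0.0557), for smoc2 and lyve1b with the replicate block (0.0572 and 0.0509) and for alx4b with quantile normalisation (0.0797). Depth limits what can be said of genes with few reads at 32 hpf, whose folds are bounds or have wide intervals.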

Other observations

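Potassium channel genes, which set the excitability of neurons and photoreceptors, rose in 16 of 25 tested cases and fell in 0, but 12 of the 25 passed the filter only through 48 hpf, and 102 were found in the table. kcnv2b, a modulatory subunit gene of photoreceptors, had no read at 32 hpf and 166, 145, 197 and 75.4 normalised counts at 48 hpf, at least 53.8-fold higher against a floor of 3 reads per library. KCNA3, a delayed rectifier gene, held 0, 5.68, 2.77 and 0 and then 117, 185, 110 and 73.7 (5.69, SE 0.71, adjusted p = 1.45e-04, limma). In the glycolysis list 13 of 26 rose and 1 fell. The counts of both lists stand beside 25.4% higher and 11.9% lower over all tested genes. gapdhs, a glyceraldehyde phosphate dehydrogenase gene, held 4922, 4017, 4322 and 3882 and then 11670, 14820, 20690 and 10030 (1.69, SE 0.22, adjusted p = 1.83e-04), and ldha, a lactate dehydrogenase gene, rose by 1.83. kcnv2b and KCNA3 were among the 12 that passed only through 48 hpf, and so had to rise. The groups of gapdhs and ldha did not overlap, where 25.0% of all tested genes had every 48 hpf library above every 32 hpf library.

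Stress genes gave 10 of 32 higher and 3 lower, near the 25.4% and 11.9% of all tested genes. They gave 8 and 6 with TMM scaling and 6 and 4 with quantile normalisation. Without replicate 5 at 32 hpf or replicate 1 at 48 hpf 1 was lower. The endoplasmic reticulum chaperone gene hspa5 held 581, 1179, 660 and 1141 and then 2534, 3145, 3288 and 2656 (1.77, SE 0.24, adjusted p = 2.14e-04), and junba, an immediate early gene, 2.09 to 21.7 and then 356 to 1171. Among long intergenic RNA genes 26 of 140 tested rose (18.6%) and 10 fell (7.14%), where 25.5% and 11.9% of protein-coding genes did.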
